A study of Homo sapiens with 6 samples.

Results

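Excision and mismatch repair are the pathways that cut damaged or mispaired bases out of one DNA strand and copy the other strand to fill the gap. The set described here holds 42 such genes, 19 of nucleotide excision repair, 17 of base excision repair and 5 of mismatch repair, together with MGMT, which reverses alkylation directly. They were taken by symbol from a deposited table of 62754 genes, each matched exactly 1 row, and all 42 were expressed highly enough to be tested. RNA was measured in HPNE-hTERT cells, an established non-malignant human line labelled as pancreatic duct epithelium and immortalized with telomerase. In one group the cells were exposed for 4 days to FOLFIRINOX, made up of 5-fluorouracil at 10 µM, SN-38 at 25 nM and oxaliplatin at 5 µM. The other group received the solvent DMSO and was sampled at day 4, and is called vehicle below. Per the labels the drugs served to make the cells senescent. Each group had 3 libraries of polyadenylated RNA from this 1 line, named P14, P15 and P19 in both groups. A value is the number of reads of a gene after the authors' scaling for library size, called normalized reads. A log2 difference is FOLFIRINOX minus vehicle on log2(normalized reads + 1), ± its standard error, and a gene is called higher or lower where limma gave a Benjamini-Hochberg adjusted p under 0.05 over all 17951 tested genes.

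The libraries held 83981154 to 97762802 reads assigned to genes. Mitochondrial ribosomal RNA took 1.18% to 2.74% of them in the FOLFIRINOX libraries and 0.552% to 0.864% in the vehicle libraries, and was highest in P14 of each group. MKI67, a marker of cycling cells, averaged 13874 normalized reads in vehicle and 30.2 after the drugs. CDKN1A, the p53 target that encodes the cell cycle inhibitor p21, averaged 22156 in vehicle and 203806 after the drugs. Among 9 ductal markers, KRT18 (9901 in vehicle), KRT8 (1776) and SOX9 (1545) were present, but the defining ductal gene EPCAM was at 0 in vehicle, and KRT19 and CFTR averaged 3.34 and 5.94. The mesenchymal genes VIM, FN1 and COL1A1 averaged 522537, 2772919 and 496766 in vehicle. Several of these markers were called lower after the drugs, VIM at −0.91, COL1A1 at −1.05, CDH2 at −0.70, SOX9 at −0.96 and KRT18 at −0.47 on the log2 scale. The base excision repair genes called lower, other than NEIL3, lay at −0.57 to −1.13. Acinar and islet markers were at or near 0, with PRSS1, CELA3A, CTRB1, INS and SST at 0 in every library. The sum of 5 immune markers was 30.9 to 83.1 after the drugs and 6.37 to 24.3 in vehicle, and that of 4 endothelial markers 18.7 to 29.8 and 18.4 to 44.6. In bulk RNA, fewer cells of one kind and less RNA per cell cannot be told apart, which bears on every level below.

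Nucleotide excision repair removes bulky lesions, among them platinum crosslinks within a strand. XPC with its partners finds them across the genome, the DDB1-DDB2 complex helps where the distortion is slight, and CSB (ERCC6) and CSA (ERCC8) act where RNA polymerase has stalled. TFIIH then opens the helix, XPA checks the damage, and a pair of nucleases excises the patch. Base excision repair begins with a glycosylase that removes a single altered base, such as uracil or 5-fluorouracil in DNA, after which the strand is cut, filled and sealed. Mismatch repair corrects errors left by replication: MutS homologs find the mismatch and MutL homologs pass the signal on to excision.

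Of the 42 genes, 5 were called higher after FOLFIRINOX and 8 lower, and 29 were not called. Over all tested genes 11.4% were called higher and 12.2% lower. The median log2 difference of the 42 was 0.01, against 0.02 for all tested genes. The pathways had unlike counts. In nucleotide excision repair 2 of 19 were called higher and 1 lower, with a median of 0.13. In base excision repair 2 of 17 were called higher and 7 lower, with a median of −0.33. In mismatch repair 1 of 5 was called higher and 0 lower, with a median of −0.01; with edgeR and DESeq2 the lower count was also 0, and with P number as a block it was 1. No test of the difference between pathways was made.

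Libraries with the same P number in the column headers deviated together, so each comparison was also fitted with P number as a block. With the block 10 of the 42 were called higher and 13 lower, where 22.3% of all tested genes were called higher and 21.8% lower. Every one of the 13 genes called without the block was also called with it, and the 10 genes called only with it are named below. In 22 of the 42 the 3 FOLFIRINOX values did not overlap the 3 vehicle values, 10 above and 12 below. Over all tested genes the values did not overlap in 19.9% upward and in 19.6% downward. When values were instead scaled to a common total, the median of all genes moved to 0.13, and 2683 genes were called higher and 1698 lower in place of 2047 and 2191.

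**Figure D1:**
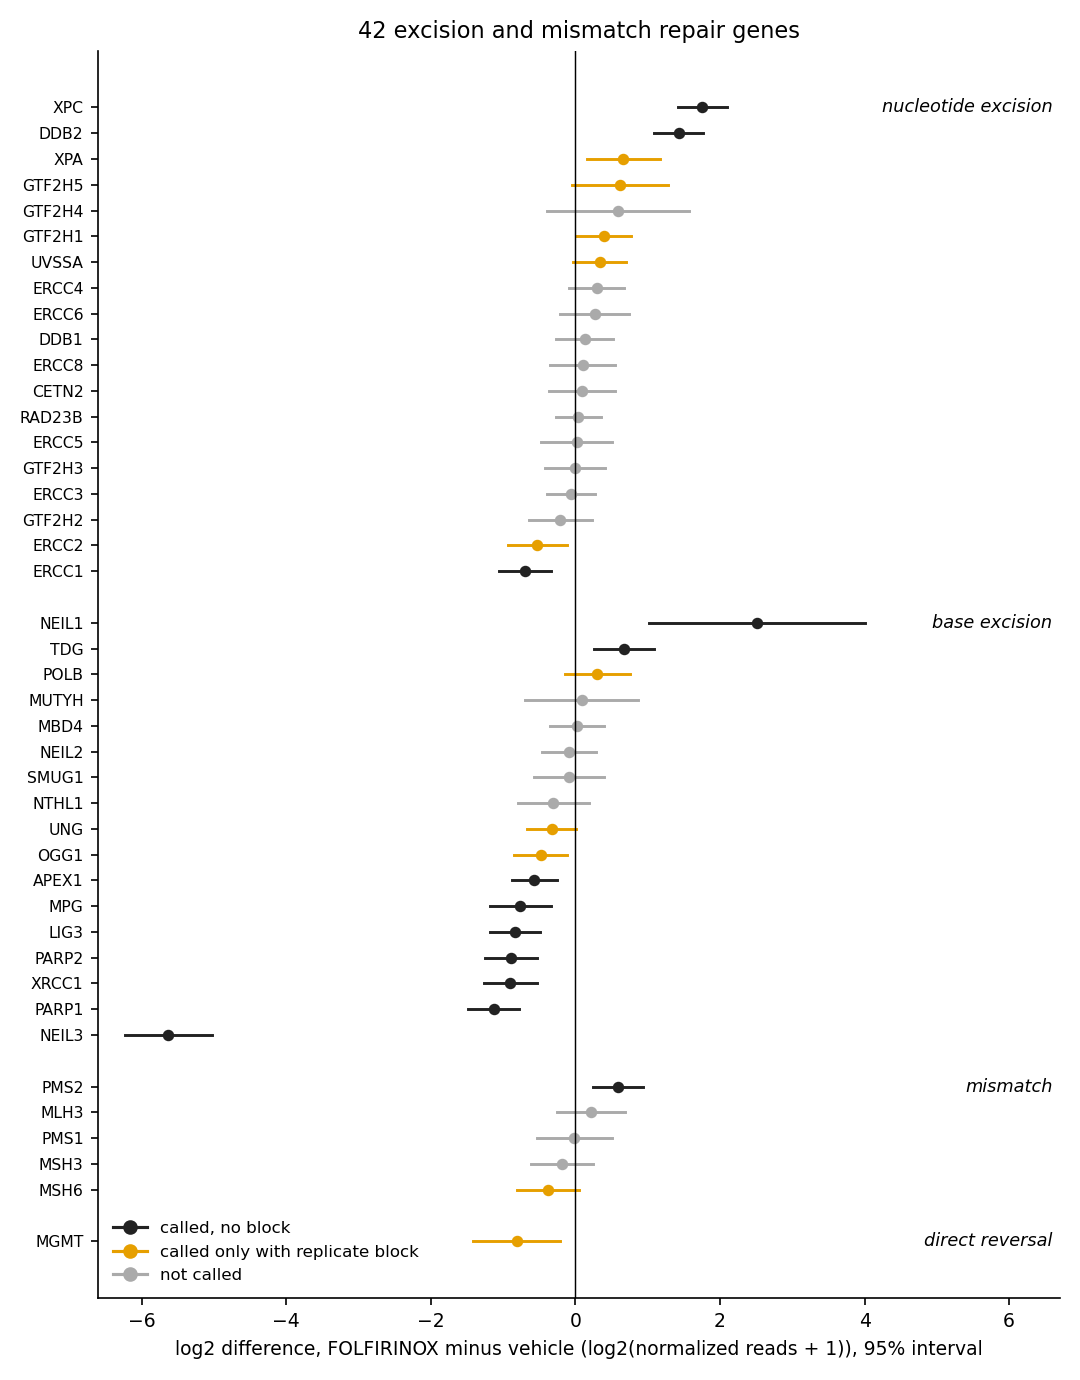
Log2 difference (FOLFIRINOX minus vehicle) of each of the 42 genes with its 95% interval, grouped by pathway; the horizontal axis is on the log2(normalized reads + 1) scale and n is 3 libraries per group. NEIL3 lies far below the rest at −5.63, XPC and DDB2 stand at 1.76 and 1.43, and the genes that cut, seal or sense strand breaks lie between −0.57 and −1.13, apart from POLB at 0.30.

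The 2 nucleotide excision repair genes called higher both find damage. XPC (chromosome 3, 14145147 to 14178783, minus strand, GRCh38), whose protein binds the distorted helix, read 11502, 13003 and 12810 normalized reads in FOLFIRINOX P14, P15 and P19. It read 3267, 3931 and 3870 in the corresponding vehicle libraries. The lowest FOLFIRINOX library was thus far above the highest vehicle library. The means were 12438 ± 817 and 3689 ± 367 (SD, n = 3), a 3.38-fold difference, with a log2 difference of 1.76 ± 0.15 (95% interval 1.42 to 2.09; limma, adjusted p = 1.37e-05).

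DDB2 (chromosome 11, 47214465 to 47239240, plus strand), the damage-binding subunit that is mutated in xeroderma pigmentosum group E, read 8426, 9891 and 10684 after the drugs and 3561, 3455 and 3715 in vehicle. These groups too lay well apart, with 9667 ± 1145 against 3577 ± 131 (SD, n = 3). The log2 difference was 1.43 ± 0.15, or 2.69-fold (limma, adjusted p = 7.45e-05). Both calls held under every alternative setting tried. XPC and DDB2 are known p53 targets, so the start regions were searched for p53 sites and other elements.

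A stretch of DDB2 and one of XPC show what was found at the starts of the called nucleotide excision repair genes that were higher. The sequences are from RefSeq (GRCh38.p14), and positions count from the RefSeq start, with −1 the base before it. In DDB2 the capitals mark a pair of p53 decamers just after a RefSeq start (chr11:47214975-47215004, plus strand, positions 2 to 31), and in XPC an E2F-type octamer (chr3:14178822-14178851, minus strand, positions −250 to −221).
DDB2: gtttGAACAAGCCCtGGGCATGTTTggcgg
XPC: cctgcgcccTTTCCCGCctctcgcgagaac
The decamer pair, searched on both strands at a spacing of 0 to 13 bases, occurred in 10 of 34943 RefSeq start windows of the same length (0.0286%), and DDB2 was the only one of the 39 members with a window to hold it. A single decamer occurred in 6.64% of all windows and in 3.70% of the 54 windows of members, in DDB2 and UNG. The first letters of the DDB2 pair overlap a CHR element, described below. An E2F octamer (TTTGGCGC, TTTCCCGC, TTTGCCGC or TTTCGCGC, either strand) occurred in 3.30% of all windows and in 11.1% of the windows of members. These belonged to 5 members, MSH3, MSH6, PMS2, UNG and XPC, and overlapping windows of PMS2 share an octamer. NEIL2, POLB and SMUG1 had no window. A match is a description of letters and says nothing of binding.

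The other 6 genes of damage recognition were not called. RAD23B, which stabilizes XPC, read 29297, 28275 and 30144 after the drugs and 25717, 28939 and 30666 in vehicle. The groups overlapped, and the log2 difference was 0.04 (95% interval −0.27 to 0.36; limma, adjusted p = 0.855). Per kilobase of exon RAD23B had 6163 normalized reads in vehicle against 769 for XPC, and 6336 against 2592 after the drugs, so the gap between the partners was smaller there. DDB1, the adaptor that joins DDB2 to the CUL4 ubiquitin ligase, read 27979, 42616 and 37998 after the drugs and 33736, 34703 and 29672 in vehicle. It was lower than its vehicle partner in P14 and higher in P15 and P19, and the log2 difference was 0.13 (95% interval −0.27 to 0.52; limma, adjusted p = 0.646). CETN2, the centrin in the XPC complex, differed by 0.09 on the log2 scale.

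The factors that act at stalled RNA polymerase moved little. ERCC6 and ERCC8 had log2 differences of 0.27 and 0.10, and neither was called. UVSSA, which steadies ERCC6 at the stalled polymerase, averaged 1560 ± 96.1 after the drugs and 1242 ± 154 in vehicle, without overlap. Its log2 difference was 0.33 (limma, adjusted p = 0.177), and it was called higher with the block (adjusted p = 0.0491).

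None of the 7 core TFIIH subunits in the set was called in the fit without the block. GTF2H5, the smallest core subunit, read 8235, 3845 and 4711 after the drugs and 4856, 2419 and 3491 in vehicle. It was higher in each P pair although the groups overlapped, and P14 was highest in both groups. Its log2 difference of 0.62 had an adjusted p of 0.165 without and 7.43e-05 with the block (limma). GTF2H1, the p62 subunit, differed by 0.40 (adjusted p = 0.112, and 0.0041 with the block), and was also called under common-total scaling (limma, 0.0479). ERCC2, the XPD helicase, went the other way, with 2676 ± 315 after the drugs and 3888 ± 733 in vehicle (SD, n = 3). Its log2 difference was −0.53 (limma, adjusted p = 0.0634, and 9.66e-04 with the block), and DESeq2 on the recovered reads also called it (adjusted p = 0.0476). ERCC3, the XPB translocase, and GTF2H3 differed by −0.06 and −0.0031.

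The remaining TFIIH subunits carry doubts of counting. GTF2H4 averaged 18.3 ± 1.64 after the drugs and 11.9 ± 2.62 in vehicle (SD, n = 3), and 79.0% of its exonic bases lie on the same strand as exons of VARS2, which averaged 10.1 and 5.52. GTF2H2 averaged 627 and 725, beside 772 and 858 for its near-identical copy GTF2H2C, so the division of reads between these copies is uncertain. Its log2 difference was −0.21.

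The incision genes split. ERCC1 (chromosome 19, 45407333 to 45478828, minus strand), which with ERCC4 forms the nuclease that cuts on the 5′ side of the lesion, read 4283, 4712 and 4027 after the drugs. It read 8267, 6830 and 6149 in vehicle, so all 3 drug libraries were below all 3 vehicle libraries. The log2 difference was −0.70 ± 0.16, or 1.62-fold lower (limma, adjusted p = 0.0111). Without FOLFIRINOX P19 the adjusted p was 0.0557, and without both P14 libraries 0.0723. Exons of CD3EAP on the opposite strand cover 28.6% of ERCC1 exons, and CD3EAP averaged 1417 after the drugs and 1629 in vehicle. Strand use in counting is not given in the sources used here.

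ERCC4, the catalytic partner of ERCC1, was higher without overlap, at 2862 ± 229 against 2350 ± 357 (SD, n = 3). Its log2 difference was 0.29 ± 0.17, and it was called neither without (limma, adjusted p = 0.246) nor with the block (0.0567). ERCC5, the nuclease for the 3′ side, averaged 205 and 204, but 63.2% of its exons are shared with the readthrough gene BIVM-ERCC5, which was at 0. BIVM, on the same strand over 19.1% of ERCC5 exons, averaged 2825 after the drugs and 2090 in vehicle. How reads in shared exons were counted is not given, so the level of ERCC5 is uncertain and may be too low. XPA, the scaffold of the incision complex, read 1829, 1028 and 1359 after the drugs and 841, 747 and 1018 in vehicle. The groups did not overlap, although FOLFIRINOX P15 exceeded vehicle P19 by little. The log2 difference was 0.67 ± 0.23, with an adjusted p of 0.0559 without and 5.03e-04 with the block (limma). edgeR (0.0468) and DESeq2 (0.0251) on the recovered reads also called XPA higher.

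Across the 19 genes the within-pair difference had a median of 0.41 on the log2 scale in P14, 0.15 in P15 and 0.12 in P19, and 9 genes were higher in all 3 pairs while 2 were lower. Of the 17951 tested genes 6048 were higher and 5654 lower in all 3 pairs. The P14 FOLFIRINOX library also had the highest mitochondrial ribosomal RNA, and the part of RNA quality in this was not tested. Without both P14 libraries XPC and DDB2 were still called higher and no gene of this pathway was called lower.

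**Figure D2:**
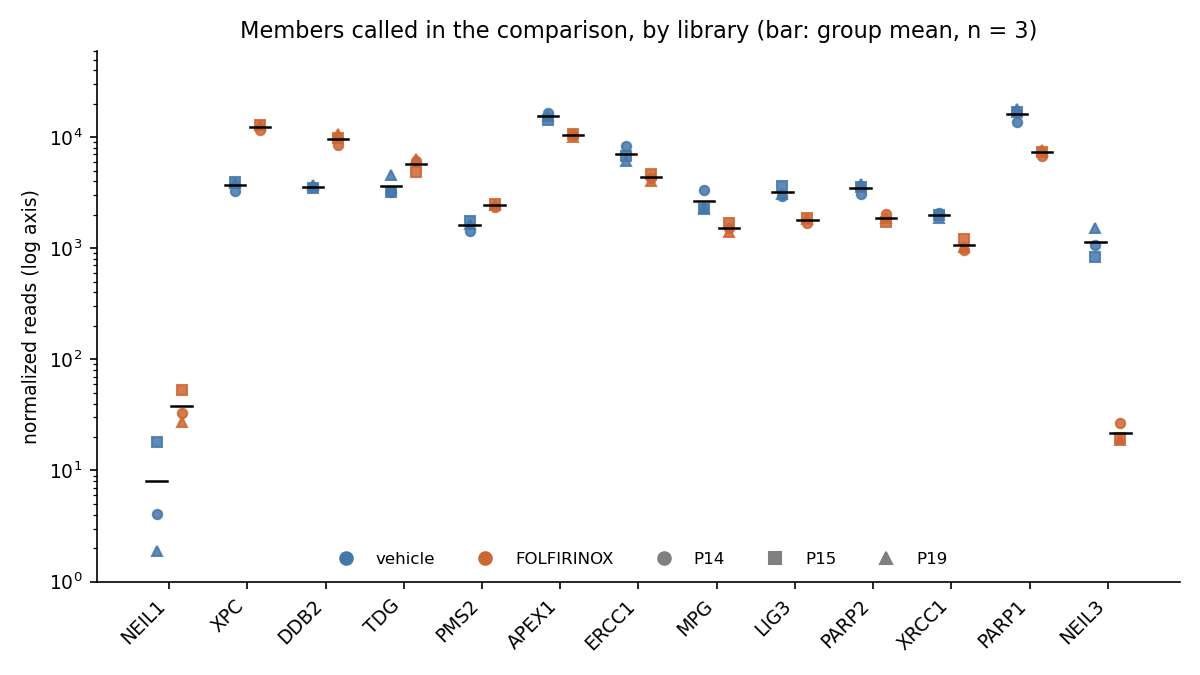
Normalized reads (log axis) in each library for the 13 genes called in the fit without a block; colours mark the group, marker shapes the P number, and bars the mean of 3 libraries. The FOLFIRINOX and vehicle points of each gene do not overlap, and the separation is widest for NEIL3, which averaged 1145 in vehicle and 21.7 after the drugs.

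Base excision repair held the largest fall of the set. NEIL3 (chromosome 4, 177309836 to 177362943, plus strand), a glycosylase for oxidized bases that also unhooks interstrand crosslinks at replication forks and is made mainly in proliferating cells, read 1064, 832 and 1538 in vehicle. After the drugs it read 26.7, 19.7 and 18.7. Every drug library was thus at a small fraction of every vehicle library. The means were 21.7 ± 4.40 and 1145 ± 360 (SD, n = 3), 49.5-fold lower, with a log2 difference of −5.63 ± 0.28 (limma, adjusted p = 1.46e-07). MKI67 moved with it (log2 difference −8.78), and the part of cycling cells in the fall of NEIL3 was not tested.

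The CHR element, letters TTTGAA on either strand, is bound in cell cycle genes by the DREAM complex, which silences them outside the cycle. It is shown here for NEIL3 and XRCC1, genes of this pathway that were called lower and hold it. The NEIL3 stretch is chr4:177309774-177309873 (plus strand, positions −100 to −1) and the XRCC1 stretch chr19:43575577-43575606 (minus strand, positions −79 to −50), with the element in capitals.
NEIL3: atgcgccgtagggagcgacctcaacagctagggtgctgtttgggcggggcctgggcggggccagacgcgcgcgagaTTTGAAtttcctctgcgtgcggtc
XRCC1: ggcgcgccggggTTTGAAaggcccgagcct
The letters occurred in 15.2% of all start windows and in 12.96% of the windows of members, so they were not more frequent in members. The windows of members with the letters belonged to 7 genes, DDB2, ERCC1, ERCC6, MUTYH, NEIL3, UNG and XRCC1. Of these genes 3 were called lower, 1 was called higher and 3 were not called. The CCAAT box, letters CCAAT, occurred in 34.6% of all windows and in 44.4% of the windows of members, which belonged to 21 members. The CHR letters were thus present both in genes that fell and in 1 that rose.

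The other glycosylases for oxidized bases were lower in level or moved less. NEIL1, which has activity on oxidized pyrimidines, read 32.9, 53.1 and 27.1 after the drugs and 4.10, 18.0 and 1.87 in vehicle. It passed the filter on low values mainly through its FOLFIRINOX libraries, was higher in every pair and rested on few reads, and its log2 difference of 2.51 had a 95% interval of 1.02 to 4.00 (limma, adjusted p = 0.0212). Without FOLFIRINOX P15 the adjusted p was 0.0811, without vehicle P14 0.07, and without both P14 libraries 0.128. Exons of MAN2C1 on the opposite strand cover 26.4% of NEIL1 exons at 1597 and 1586 normalized reads, and the antisense RNA AC068338.3 at its start averaged 16.9 and 4.05, so NEIL1 is uncertain. NEIL2 differed by −0.09 and NTHL1, for oxidized pyrimidines, by −0.31. Neither was called.

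OGG1, which removes 8-oxoguanine, averaged 779 ± 68.8 after the drugs and 1085 ± 66.3 in vehicle (SD, n = 3). The groups did not overlap, and the log2 difference of −0.48 had an adjusted p of 0.059 without and 0.0063 with the block (limma), and OGG1 was also called lower with TMM (0.0482) and with the filter at 50 (0.0491). CAMK1, on the opposite strand over 25.0% of OGG1 exons, averaged 817 and 1192. MUTYH, which removes adenine paired with 8-oxoguanine, was low at 49.7 ± 17.9 and 45.2 ± 7.96, with a log2 difference of 0.09.

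The glycosylases that act on uracil or 5-fluorouracil in DNA did not move together. TDG, which acts on thymine and uracil opposite guanine, read 6075, 4875 and 6400 after the drugs and 3237, 3213 and 4547 in vehicle. The groups came closest between FOLFIRINOX P15 and vehicle P19 and did not overlap. The log2 difference was 0.67 ± 0.19 (limma, adjusted p = 0.0260). That call was lost when FOLFIRINOX P14 (0.0706) or P19 (0.104) was left out, when vehicle P14 (0.0895) or P15 (0.0948) was, without the pair of P14 libraries (0.167) and without the mean-variance trend (0.0735).

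UNG, the main uracil-DNA glycosylase, averaged 1817 ± 112 after the drugs and 2279 ± 149 in vehicle, without overlap. Its log2 difference was −0.33 (limma, adjusted p = 0.154, and 0.0391 with the block). SMUG1 differed by −0.09. MBD4, which acts at methylated CpG sites, read 4490, 3717 and 3911 after the drugs and 3859, 3477 and 4656 in vehicle. These values overlapped, with a log2 difference of 0.02 (95% interval −0.35 to 0.39; limma, adjusted p = 0.942). MPG, for alkylated purines, read 1535, 1675 and 1402 after the drugs and 3365, 2279 and 2306 in vehicle, where P14 was the highest. Its log2 difference was −0.76 ± 0.19 (limma, adjusted p = 0.0148), with adjusted p = 0.0606 without FOLFIRINOX P19 and 0.0855 without both P14 libraries. NPRL3, on the opposite strand over 27.3% of MPG exons, averaged 1221 and 1663.

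Of the 6 genes of the later steps of base excision repair 5 were called lower and POLB was not, with a median log2 difference of −0.86. Each of the 5 was lower in every pair. APEX1, the endonuclease that cuts at abasic sites, had the highest level per kilobase of exon among the 42 genes in vehicle, at 8170 normalized reads. It read 10467, 10650 and 10069 after the drugs and 16412, 14381 and 15432 in vehicle. The spread within each group was small beside the gap, and the log2 difference was −0.57 ± 0.14 (limma, adjusted p = 0.0150). The adjusted p was 0.0796 without FOLFIRINOX P19, 0.0623 without both P14 libraries and 0.0509 under common-total scaling.

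PARP1 (chromosome 1, 226360691 to 226408079, minus strand), the sensor that marks strand breaks with poly(ADP-ribose), read 6801, 7376 and 7732 after the drugs and 13660, 16804 and 17794 in vehicle. The groups lay far apart, at 7303 ± 470 and 16086 ± 2159 (SD, n = 3), 2.19-fold lower, with a log2 difference of −1.13 ± 0.16 (limma, adjusted p = 5.03e-04). Its homolog PARP2 read 2034, 1713 and 1887 after the drugs and 3102, 3578 and 3781 in vehicle. PARP2 was lower by nearly as much, with a log2 difference of −0.89 ± 0.16 (limma, adjusted p = 0.0026).

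XRCC1, the scaffold recruited by poly(ADP-ribose), read 959, 1221 and 1023 after the drugs and 2097, 1974 and 1877 in vehicle (log2 difference −0.90 ± 0.17; limma, adjusted p = 0.0030). LIG3, the ligase bound to XRCC1 that also seals mitochondrial DNA, read 1692, 1890 and 1843 after the drugs and 2972, 3634 and 3106 in vehicle (−0.84 ± 0.16; limma, adjusted p = 0.0035). Scaffold and ligase thus fell by similar amounts. The calls of NEIL3, PARP1, PARP2, XRCC1 and LIG3 held under every alternative setting tried. RFFL lies opposite 29.1% of LIG3 exons and averaged 1168 after the drugs and 1967 in vehicle, and if strand was not used in counting, reads of the pair cannot be told apart there.

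POLB, the polymerase that fills the gap of a single base, was the exception among the later steps. It read 4012, 2969 and 2590 after the drugs and 3009, 2172 and 2504 in vehicle. It was higher in every pair but the groups overlapped, and the log2 difference was 0.30 ± 0.20 (limma, adjusted p = 0.306, and 0.0483 with the block).

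Of the mismatch repair genes, PMS2, the endonuclease subunit of MutLα, was the only one called without the block. It read 2332, 2483 and 2470 after the drugs and 1438, 1763 and 1649 in vehicle. The drug libraries were close together and all above vehicle, at 2429 ± 83.8 against 1617 ± 165 (SD, n = 3), with a log2 difference of 0.59 ± 0.16 (limma, adjusted p = 0.0204). The call was lost without FOLFIRINOX P15 (adjusted p = 0.0669), FOLFIRINOX P19 (0.0877), vehicle P14 (0.0656) or both P14 libraries (0.0885). PMS2 has many pseudogenes. Of these PMS2P5 averaged 88.0 after the drugs and 40.6 in vehicle and PMS2P4 141 and 121, so how reads were divided among the copies is uncertain.

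MSH6, the MutS homolog that finds single mismatches and is known to recognize 5-fluorouracil paired with guanine, read 6885, 6282 and 7446 after the drugs and 6947, 8688 and 11731 in vehicle. The libraries overlapped, since vehicle P14 was as low as the drug libraries, and P19 was highest in both groups. The log2 difference was −0.38 (95% interval −0.81 to 0.06; limma, adjusted p = 0.194), and with the block it was called lower (adjusted p = 0.0113). FBXO11, opposite 16.2% of MSH6 exons, averaged 7685 and 7313.

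MSH3, the MutS homolog for larger loops, read 2124, 2595 and 3055 after the drugs and 2401, 2992 and 3410 in vehicle. It was lower in each pair by a similar small amount, with a log2 difference of −0.18 (95% interval −0.61 to 0.25; limma, adjusted p = 0.540). The MutL homologs MLH3 and PMS1 differed by 0.22 and −0.01, and neither was called with or without the block. MGMT, which removes alkyl groups from guanine, read 90.5, 84.6 and 66.3 after the drugs and 187, 123 and 122 in vehicle. The transcript was low throughout and the groups did not overlap, with a log2 difference of −0.81 (limma, adjusted p = 0.0508, and 0.0068 with the block). It was also called lower by DESeq2 on the recovered reads (adjusted p = 0.0495), and by limma with TMM (0.0451), with the filter at 50 (0.0489), with a pseudocount of 8 (0.0491) and without vehicle P19 (0.0487).

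**Figure D3:**
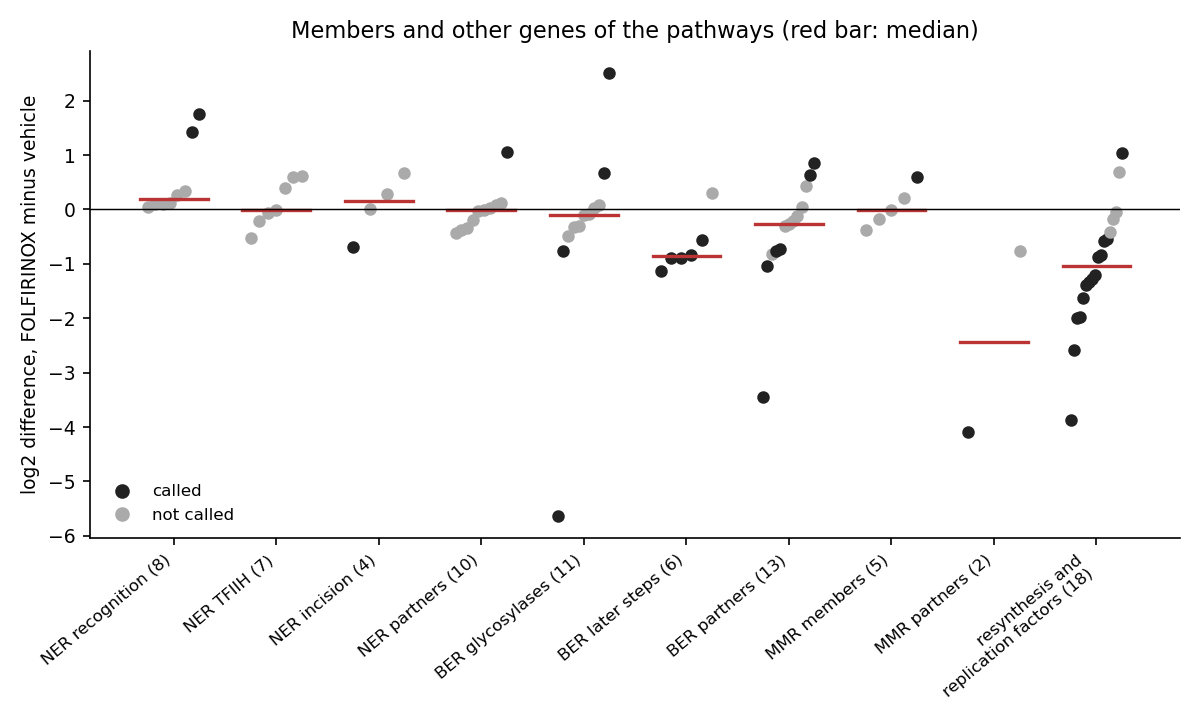
Log2 differences (FOLFIRINOX minus vehicle) of the genes in each role of the 3 pathways and in the lists of partner genes, 1 point per gene, dark where called, with a red bar at the median of each list (NER, nucleotide excision repair; BER, base excision repair; MMR, mismatch repair). The later steps of base excision repair centre on −0.86 and the resynthesis and replication factors on −1.04, while damage recognition centres on 0.20 and TFIIH on −0.0031.

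Partner genes of the pathways, listed for their known function, were counted in the same fit. Of 18 factors that copy and hold the repair patch and also serve replication, 13 were called lower and 1 higher, with a median log2 difference of −1.04. The gene called higher was PCNA, the sliding clamp and a known p53 target, at 32392 ± 2895 after the drugs and 15831 ± 2451 in vehicle (SD, n = 3; log2 difference 1.04). The clamp loader genes RFC2, RFC3, RFC4 and RFC5 were called lower, with log2 differences of −1.39, −2.57, −1.63 and −1.99, while RFC1, their large subunit, differed by −0.05 and was not called. The catalytic polymerase subunits POLD1 and POLE fell by 1.28 and 1.98, and POLE2 by 3.86. The clamp and 4 genes of its loader were therefore called in opposite directions. MKI67 fell beside these replication factors, and its part was not tested. Over the alternative settings 11 to 14 of the 18 were called lower, RPA1 and POLD2 being among those lost in several.

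Of 13 genes listed as base excision repair partners 4 were called lower and 2 higher. The list also holds ALKBH2 and ALKBH3, which like MGMT reverse alkylation directly, so these counts are not of base excision repair alone. FEN1, the flap nuclease of the long patch, fell by 3.45 on the log2 scale, from 4984 ± 928 in vehicle to 452 ± 37.3 (SD, n = 3). LIG1, which seals that patch, differed by −0.27 and was not called. TDP1, which frees DNA ends from trapped topoisomerase I, fell by 1.03. APEX2 and ALKBH3 were called lower by 0.76 and 0.72, and APLF and PARG, the latter the enzyme that removes poly(ADP-ribose), higher by 0.85 and 0.63. The PARG call was lost without the trend (limma, adjusted p = 0.0774) and when FOLFIRINOX P14 (0.0582) or P19 (0.138), or vehicle P14 (0.107) or P15 (0.0906), was left out. Without both P14 libraries 2 were called lower and 0 higher, leaving FEN1 and TDP1. By edgeR the counts were 5 lower and 2 higher.

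Of 10 nucleotide excision repair partners 1 was called higher and 0 lower, by limma with the trend, edgeR and DESeq2 alike, and with the block 3 were called lower. The one called higher was CCNH, the cyclin of the TFIIH kinase, at 7825 ± 2853 after the drugs and 3712 ± 1127 in vehicle (log2 difference 1.06; limma, adjusted p = 0.0218). That call was lost without FOLFIRINOX P14 (0.0706), vehicle P15 (0.0720) or both P14 libraries (0.0577), and in limma without the trend (0.0821). The kinase CDK7 and the assembly factor MNAT1 differed by −0.01 and −0.03. Of the mismatch repair partners EXO1, the nuclease that excises the mismatched strand, averaged 2293 ± 612 in vehicle and 131 ± 19.4 after the drugs (log2 difference −4.09). MSH5 was not called without the block (log2 difference −0.77; limma, adjusted p = 0.144) and was called lower with it (0.0363), and MSH4 was too low to test.

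Many of these genes share their start with a neighbour on the opposite strand. By GENCODE 29 coordinates, 15 pairs of a member and such a protein-coding neighbour starting within 1000 bases were compared. The differences between the neighbours were not tested. Over all tested genes 11.4% were called higher and 12.2% lower without the block. A neighbour was called lower beside 3 members with differences near 0. CETN2 (0.09) lies beside NSDHL, an enzyme of cholesterol synthesis, at −1.25. MBD4 (0.02) lies beside IFT122 at −0.87, and MUTYH (0.09) beside TOE1 at −0.77. In each of these pairs the estimate for the member was near 0 and its neighbour fell. For MUTYH, which rests on few reads, the 95% interval was wide, at −0.69 to 0.86. TOE1 exons on the opposite strand cover 14.1% of MUTYH exons, and TOE1 averaged 568 after the drugs and 967 in vehicle. The MUTYH pair is therefore uncertain. Upward, GTF2H1 (0.40) lies beside HPS5 at 1.02, GTF2H5 (0.62) beside SERAC1 at 0.88, and TDG (0.67) beside UQCC6 at 0.66. PMS1 (−0.01) lies beside ORMDL1 at 0.65. The calls of UQCC6 and ORMDL1 were each lost in 5 of the 7 settings that left out libraries. Without the mean-variance trend both were lost too (limma, adjusted p = 0.100 and 0.0901). That of UQCC6 was also lost under TMM (limma, adjusted p = 0.0568) and with no filter (0.0567). The call of SERAC1 was lost without both P14 libraries (limma, adjusted p = 0.0548). XPC (1.76) stood beside LSM3, which was not called without the block (−0.38; limma, adjusted p = 0.456) and was called lower with it (0.0081). The remaining neighbours were also not called without the block. They were CCT6B at −0.26 beside LIG3, RHBDF1 at 0.02 beside MPG, OSGEP at −0.33 beside APEX1 and AIMP2 at −0.20 beside PMS2. The others were TSC2 at 0.20 beside NTHL1, NDUFAF2 at −0.38 beside ERCC8 and EIF2B1 at 0.01 beside GTF2H3. With the block OSGEP and NDUFAF2 were called lower (limma, adjusted p = 0.0478 and 0.0074).

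**Figure D4:**
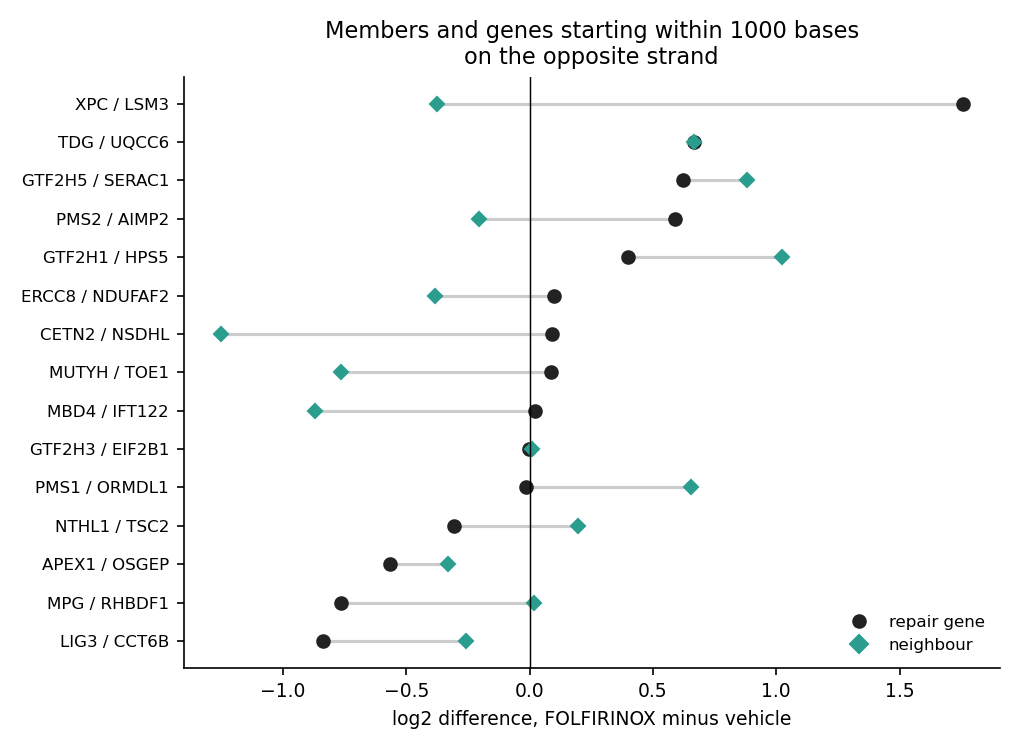
Log2 difference of each member (circle) and of its protein-coding neighbour starting within 1000 bases on the opposite strand (diamond), 1 pair per row and 15 pairs in all, FOLFIRINOX minus vehicle on the log2(normalized reads + 1) scale. CETN2 lies near 0 at 0.09 while NSDHL lies at −1.25, and XPC at 1.76 lies above LSM3 at −0.38.

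The members were also set side by side per kilobase of exon, which removes gene length from the comparison. The most abundant were largely the same genes in both groups, although APEX1 and RAD23B changed places. In vehicle APEX1 (8170 normalized reads per kilobase), RAD23B (6163), CETN2 (4166), DDB1 (2344) and PARP1 (2244) were the highest. After the drugs RAD23B (6336), APEX1 (5512), CETN2 (4487), DDB1 (2595) and XPC (2592) were, so that XPC took the place of PARP1 (1019). These levels use all annotated exons, which understates genes with many unused exons.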

How the data were processed

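Polyadenylated RNA was sequenced in 6 libraries, 3 per group. The submitters' processing notes name STAR 2.7.11b, featureCounts 2.0.6, DESeq2, FastQC 0.12.1 and the build GRCh38. Which annotation, strand setting and model were used is not given in the sources used here. The authors deposited a library-size normalized signal per gene and library, their log2 fold changes with standard errors, a score (the Wald statistic) and p-values with adjusted p-values. Every deposited value was, within 0.001, a whole number of times what a single read is worth in that library (100% of values), so read counts were recovered. Both ends of a fragment may have been counted, and no counting interval is given.

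The main test was limma 3.58.1 in R 4.3.3, with a mean-variance trend, two-sided, on log2(value + 1). Genes needed 10 normalized reads in 3 or more libraries. Folds on this scale are too small for low genes. Standard errors had a median of 0.226 over all tested genes. With 3 against 3 libraries the smallest exact permutation p is 0.1, so that test was not used. On the recovered reads edgeR 4.0.16 called 1987 genes higher and 2183 lower, and DESeq2 1.42.0 called 2208 and 2300. This DESeq2 fit held the treatment groups and no block. The authors' deposited adjusted p gave the same counts, and XPA had an adjusted p of 0.0251 in both (DESeq2). The deposited values thus match a fit without a block, and the 2 are not separate checks. The columns carry P numbers that no label gives, so columns were assigned to groups only. Deviations from the group means correlated at 0.257 to 0.288 between libraries of the same P number and at −0.263 to −0.0272 between others, so the numbers were read as pairs. Such deviations cancel out within a group, so positive values for the same P number force the others to be negative on average. The negative values therefore add no support for pairing. No label names separate cultures, and p-values therefore describe the spread of these libraries, which may be technical.

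The members and lists were chosen with earlier results of these data known. Values in each library are given for every called member and for the 2 uncalled members of each pathway with the highest vehicle mean; those of other members were chosen for a call that the block changed. Genes were placed, and exon overlap measured, with GENCODE 29, and start windows (positions −250 to 50) are from RefSeq; 39 of 42 members had one. The limma step was tested on simulated data. These were drawn as independent libraries with no effect of P number, so they say nothing of calls where such an effect is present. Some genes beside or related to the members are not reported here.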

Additional observations from a re-analysis of the deposited data

How the results depend on the processing

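Each result was recomputed under 18 alternatives. These were a pseudocount of 0.5 or 8, testing with no filter or with one at 50, TMM or common-total scaling, limma without the trend, edgeR, DESeq2, the authors' deposited adjusted p, the block on P number, leaving out each library, and leaving out both P14 libraries. Of the 13 called members 7 kept their call under every alternative that tested them (XPC, DDB2, NEIL3, XRCC1, LIG3, PARP1 and PARP2), and of 29 uncalled members 19 were called under none. The NEIL1 result could not be had with the filter at 50, which left it out. With the replicate block, which reads the P numbers as pairs, 3995 genes were called higher and 3918 lower in all, against 2047 and 2191 without it. In the same paired fit 6 nucleotide excision repair members were higher and 2 lower, and 1 mismatch repair member was lower. Without both P14 libraries 1162 genes were higher and 1368 lower, while 0 nucleotide excision repair members were lower, 0 base excision repair members higher and 0 mismatch repair members higher. Leaving out 1 library at a time gave 1318 to 2218 genes higher, 0 to 2 nucleotide excision repair members lower, 0 to 2 base excision repair members higher and 0 to 1 mismatch repair member higher. The number of base excision repair members called lower, 7, ranged from 5 to 9 over all alternatives. Under common-total scaling 4 nucleotide excision repair members were higher, and 2 were lower by DESeq2 and by the authors' deposited table. DESeq2 and the deposited table gave the same counts of called genes and are not separate checks. Only 1 base excision repair member was higher with the filter at 50, which did not test NEIL1, or without the trend. The cause of the other changes was not tested.

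A change of sign was seen in 12 members, none of them called. Common-total scaling moved the median of all genes from 0.02 to 0.13, a shift that turns small negative values positive by construction. Under common-total scaling the log2 differences of ERCC3, GTF2H3, NEIL2, SMUG1 and PMS1 became 0.046, 0.11, 0.024, 0.017 and 0.10. With TMM those of ERCC5 and MBD4 became −0.0080 and −0.0048. On the recovered reads that of GTF2H3 became 0.0075 by edgeR, DESeq2 and the authors' deposited table. Without both P14 libraries ERCC5, RAD23B and MBD4 stood at −0.13, −0.029 and −0.078. Leaving out 1 library at a time gave ranges of −0.0010 to 0.30 for DDB1, −0.13 to 0.12 for ERCC5, −0.061 to 0.24 for ERCC8, −0.027 to 0.10 for RAD23B and −0.11 to 0.23 for CETN2. The ranges were −0.13 to 0.15 for GTF2H3, −0.17 to 0.35 for MUTYH, −0.074 to 0.14 for MBD4, −0.30 to 0.058 for SMUG1 and −0.20 to 0.24 for PMS1. The cause of the changes other than those of common-total scaling was not tested.

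Depth was ample for most members, and precision is limited by 3 libraries per group. NEIL1, GTF2H4, NEIL3 after the drugs, MUTYH and MGMT rest on few reads per library.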
